A study of Mus musculus with 2 samples.

Results

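The cells described here are basal keratinocytes of the mouse cheek lining that carried many transcripts of 3 histone genes while showing few transcripts of DNA replication. They were selected on measured values, cell by cell. A member showed 500 genes or more, and mitochondrial genes gave no more than 10% of its UMIs (unique molecular identifiers, each standing for 1 captured transcript). For every 10000 of its UMIs it held at least 5 of Hist1h1c, Hist1h2bc and Hist1h4i together and under 6 of 7 S-phase genes (Mcm3, Ung, Hells, Dtl, Ccne2, Cdt1, Rrm2). It also held under 10 of 6 mitosis genes (Top2a, Cenpf, Ube2c, Ccnb1, Nusap1, Prc1), under 80 of the mucosal keratins Krt4 and Krt13, under 15 of Dcn and under 5 of Krt7 and Krt18. In all, 993 cells met these limits, 458 in library 1 and 535 in library 2, of 15470 kept cells and 16291 barcodes. They are called histone-high basal cells. The 3324 cells that met every limit except the histone one, 1599 in library 1 and 1725 in library 2, are called histone-low basal cells.

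The epithelium came from the buccal mucosa of 12-week-old C57BL/6 female mice with no treatment or genetic change named. Cells of 10 mice were pooled and sorted for a high surface level of CD104, the β4-integrin of hemidesmosomes, before capture on the 10x Chromium platform. That suspension was divided into 2 technical libraries, so there was 1 independent sample and no test of a difference was possible. The libraries held 67962712 and 73935792 UMIs. The 2 libraries shared 104 barcode sequences, 96 of them among kept cells and 0 among histone-high basal cells.

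Core histones and the linker histone H1 package DNA, and most of their genes are transcribed while DNA is copied. Their mRNAs usually end in a stem-loop rather than a poly(A) tail and are degraded when replication stops. Some histone genes also make polyadenylated mRNA, the form that oligo(dT) priming captures. The basal layer of oral epithelium holds the dividing keratinocytes, which express Krt5 and Krt14 and are anchored by α6β4-integrin.

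Histone-high cells made up 22.3% of the 2057 eligible basal cells of library 1 (95% exact binomial interval 20.5% to 24.1%) and 23.7% of the 2260 in library 2 (21.9% to 25.5%). Of all kept cells they made up 6.63% in library 1 and 6.25% in library 2. The intervals of the libraries overlapped. All intervals here cover counting error only. In cells that met the other limits but held at least 80 of Krt4 and Krt13 per 10000, the share past the same histone limit was 16.4% of 2843 cells in library 1 (15% to 17.8%) and 16.7% of 3717 in library 2 (15.5% to 17.9%).

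Depth was close between the classes. The median histone-high cell had 5526.5 UMIs in library 1 and 4744 in library 2, against 6030 and 4876 in histone-low cells. Median mitochondrial shares were 3.83% and 4.33% in histone-high cells, against 4.47% and 5.0% in histone-low cells.

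The histone sum that chose the cells had a median of 9.47 UMIs per 10000 in library 1 and 9.02 in library 2, with highest values of 36.9 and 52.5. In raw terms a member held 2 to 33 of these UMIs in library 1 and 2 to 22 in library 2, with medians of 5 and 4. Members that passed with only 2 UMIs numbered 41 in library 1 and 57 in library 2. Most of the sum was Hist1h2bc, a histone H2B gene, with 59.3% of these UMIs in library 1 and 58.8% in library 2. Hist1h1c, which encodes the linker histone H1.2, gave 35.5% and 36.3%, and the H4 gene Hist1h4i gave 5.27% and 4.90%. In 99 members of library 1 and 119 of library 2 a single gene made the whole sum, while 92 and 102 members held all 3.

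Levels of classes are given in CPM, the UMIs of a gene per 1000000 UMIs summed over the class in that library. Hist1h2bc stood at 640 and 666 CPM in histone-high cells of library 1 and library 2, against 86.4 and 87.8 CPM in histone-low cells. Hist1h1c stood at 383 and 412 CPM in histone-high cells, against 35.3 and 36.2 CPM in histone-low cells. Hist1h4i was at 56.9 and 55.6 CPM in histone-high cells and at 5.52 and 5.36 CPM in histone-low cells. These levels describe the choice of the cells and show nothing beyond it. In S-phase basal cells, which had at least 6 UMIs per 10000 of the S-phase genes, the same genes averaged 27.7 CPM (Hist1h2bc), 28.4 CPM (Hist1h1c) and 27.3 CPM (Hist1h4i).

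The 3 genes lie in the histone cluster on mouse chromosome 13 (GRCm38, annotated by GENCODE M21). Hist1h1c spans chr13:23738808-23740367 on the plus strand, Hist1h2bc chr13:23684199-23692908 on the plus strand, and Hist1h4i chr13:22040636-22041362 on the minus strand. The consensus of the histone stem-loop, searched as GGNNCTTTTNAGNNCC on the sense strand of the annotated transcripts, was found in 44 of 70 genes whose symbol starts with Hist. It was found in Hist1h1c and Hist1h4i and in no position of the Hist1h2bc transcript. The matched sites are shown because they let the transcript's length past the stem-loop be measured, with the fixed letters of the consensus in capitals.
Hist1h1c: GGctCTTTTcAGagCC
Hist1h4i: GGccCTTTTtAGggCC
Hist3h2a: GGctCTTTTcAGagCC
The annotated Hist1h1c transcript of 1560 bases ran on for 840 bases after the stem-loop and held the polyadenylation signal AATAAA, which began 26 bases from its end. Hist1h4i ran on for 330 bases, and neither it nor Hist1h2bc had AATAAA in the last 40 bases. The Hist3h2a transcript, on chromosome 11, ran on for 1643 bases and had an AATAAA that began 34 bases from its end. Of all 70 genes, 22 had over 100 bases after a stem-loop. Counted over all transcripts of a gene, 11 had both the stem-loop and AATAAA in the last 40 bases. In Hist1h2be and Hist1h2bp, which are among the 11, the motifs lay in different transcripts. A match describes these letters and does not show which mRNA form was captured.

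Hist3h2a, a histone H2A gene on chromosome 11 (chr11:58954685-58956830, plus strand) that the rule did not use, was at 145 and 143 CPM in histone-high cells of library 1 and library 2, against 66.0 and 65.4 CPM in histone-low cells. Its log2 ratio was 1.13 in each library (95% counting interval of the pooled ratio 1.0 to 1.26). S-phase basal cells had 25.6 CPM and G2/M basal cells, with at least 10 UMIs per 10000 of the mitosis genes, had 62.8 CPM. The order for this gene was histone-high, histone-low, G2/M, then S-phase cells. The other genes named Hist that were outside the rule were below the 20 CPM needed for a call. Among these, Hist1h3d was at 7.03 and 5.56 CPM in histone-high cells, against 0.39 and 0.33 CPM in histone-low cells, and was at 0.00 CPM in S-phase cells. Hist1h2ae was at 3.33 and 2.22 CPM in histone-high cells, against 1.26 and 1.64 CPM in histone-low cells, and averaged 29.7 CPM in S-phase cells and 61.1 CPM in G2/M cells. Among the classes given, Hist3h2a thus had its highest level in histone-high cells and Hist1h2ae in G2/M cells. Hist1h3d and Hist1h2ae were picked after their values were seen. Both were under 20 CPM in histone-high and histone-low cells, too low for a precise ratio between these classes. Nothing is read from them about histone genes in general.

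Across the transcriptome, a gene was called when histone-high cells differed from histone-low cells by at least 1.5-fold (0.58 on the log2 scale) with the same sign in each library, at a mean of at least 20 CPM. Of 5268 genes outside the rule, 65 were higher (1.23%) and 53 were lower (1.01%) in histone-high cells. The median log2 ratio over all these genes was 0.071 in library 1 and 0.056 in library 2. Since the contrast is the one that chose the cells, the counts are a description, and so are the counts for gene lists below.

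**Figure D1:**
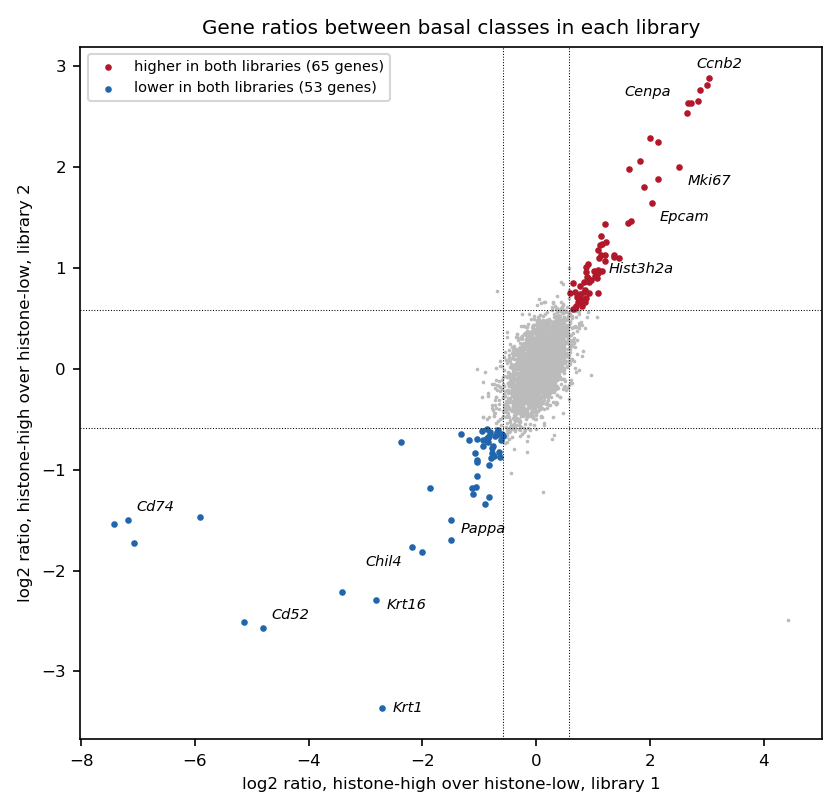
Log2 ratio of each of 5268 genes between histone-high and histone-low basal cells, library 1 on the horizontal axis and library 2 on the vertical axis, with dotted lines at 1.5-fold. The 65 higher genes (red) run up to Ccnb2 at 3.05 and 2.88, and the 53 lower genes (blue) include immune genes that lie far apart between the libraries, such as Cd74 at -7.18 and -1.50.

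The label says that the cells are outside S phase, and levels of replication genes that the rule did not use are given as a description. All 30 further replication genes, taken with no filter on level, were lower in histone-high cells than in S-phase basal cells in each library, with a median level of 8.51 CPM in histone-high cells and 129 CPM in S-phase cells. S-phase cells were chosen for a high level of replication transcripts, so these values describe that choice. Of the 29 genes that passed the filter of 20 CPM, 18 did so while under 20 CPM in histone-high cells, and all 29 were called lower. Over all 5414 genes of that comparison, 445 (8.22%) were lower and 257 (4.75%) higher, and nothing is read from the 29 calls. Pcna, the sliding clamp of DNA polymerase, was at 27.4 and 31.1 CPM in histone-high cells of library 1 and library 2 and averaged 337 CPM in S-phase cells. Slbp, which binds the histone mRNA stem-loop, was at 48.8 and 52.2 CPM in histone-high cells and averaged 608 CPM in S-phase cells.

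Set against histone-low cells, 27 of the 30 replication genes were lower in histone-high cells in each library, 2 were higher in each and 1 differed in sign, with median levels of 8.51 CPM in histone-high and 18.9 CPM in histone-low cells. Among all 5268 genes, 48.1% were higher in each library. Of the 11 replication genes that reached 20 CPM, 0 were called higher and 1, Pcna, was lower, at 27.4 and 31.1 CPM in histone-high cells against 48.9 and 51.3 CPM in histone-low cells (log2 -0.84 and -0.72). Dut, which removes dUTP, was within the limit at 60.6 and 68.5 CPM in histone-high cells against 93.4 and 101 CPM in histone-low cells. Tipin, a part of the fork protection complex, was at 34.4 and 45.9 CPM against 57.8 and 63.6 CPM and was likewise not called. These values did not go against the label of cells outside S phase.

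Mitotic transcripts were more abundant in histone-high than in histone-low cells. Of 24 mitosis genes outside the rule, taken with no filter on level, 21 were higher in histone-high cells in each library, 0 were lower in each and 3 differed in sign, with median levels of 39.0 CPM in histone-high and 10.0 CPM in histone-low cells. Of the 14 that passed the filter of 20 CPM, 8 were under 20 CPM in histone-low cells and passed through histone-high cells, so the 12 called higher are a description of that filter too. Ccnb2, which encodes cyclin B2, was at 112 and 126 CPM in histone-high cells of library 1 and library 2, against 13.6 and 17.2 CPM in histone-low cells, a log2 ratio of 3.05 and 2.88 (interval 2.77 to 3.17). Cenpa, the histone H3 variant of centromeres, was at 209 and 224 CPM in histone-high cells, against 28.5 and 33 CPM in histone-low cells (log2 2.87 and 2.76). The kinetochore motor gene Cenpe was at 72.8 and 70.8 CPM against 9.11 and 10.1 CPM (log2 3.0 and 2.81). In each of these genes the libraries lay close together within a class and far apart between classes.

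Others of the most increased genes have roles around mitosis as well. Cdca3, whose product acts at mitotic entry, was at 106 and 104 CPM in histone-high cells against 14.7 and 16.6 CPM in histone-low cells. Cdca8, which encodes borealin of the chromosomal passenger complex, was at 107 and 107 CPM against 16.1 and 17.3 CPM. Mki67, which encodes the proliferation marker Ki-67, was at 68.4 and 54.8 CPM against 12.0 and 13.7 CPM. Among the other highest genes were Cdkn3 (log2 2.67 and 2.63), Hmmr (2.64 and 2.53), C330027C09Rik (2.14 and 2.25), Cdc20, an activator of the anaphase-promoting complex (2.00 and 2.29), Knstrn (2.15 and 1.88) and Anln, which encodes anillin of the cleavage furrow (1.82 and 2.06).

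These levels were below those of G2/M basal cells. Over the 24 mitosis genes, the level in histone-high cells was 2.38% to 36.4% of that in G2/M cells, with a median of 16.9%, while histone-low cells had 1.33% to 15.6%, with a median of 4.34%. Members were not alike within that range. Ccnb2 was at 36.4%, Cenpe at 36.3% and Cenpa at 31.7% of the G2/M level. Cdk1 was at 4.23%, at 27.4 and 27.0 CPM in histone-high cells against 19.7 and 18.4 CPM in histone-low cells, and was not called. Spc25, a kinetochore gene, was at 2.38% of the G2/M level. The rule's own limit on 6 mitosis genes bounds the levels of those genes and those that vary with them.

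**Figure D2:**
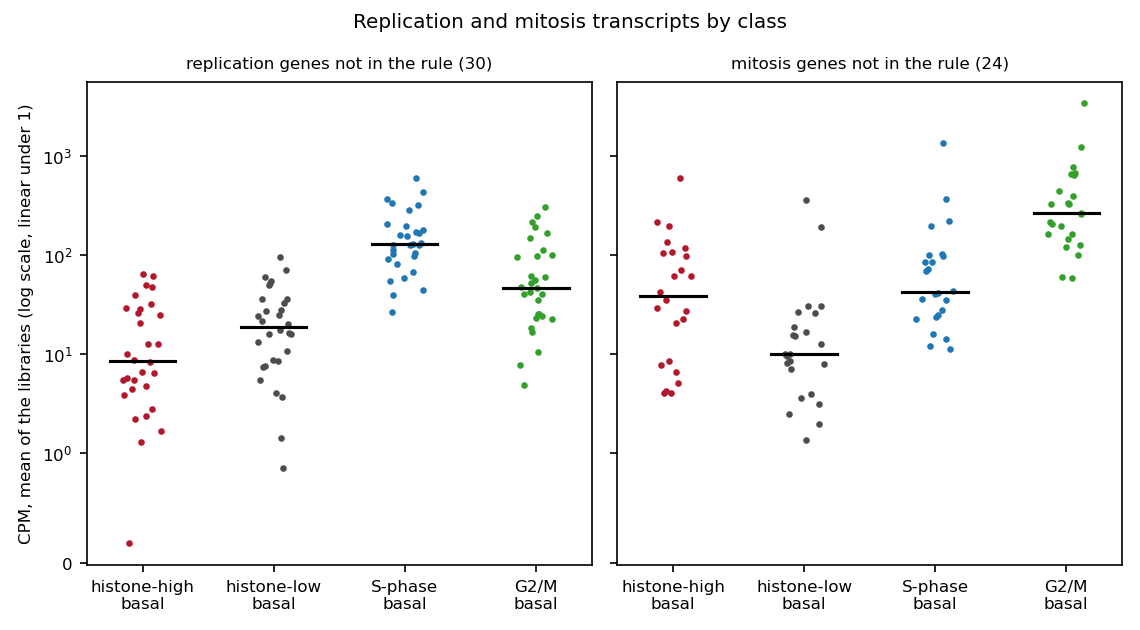
Each point is a gene's level (mean of the libraries, CPM on a log scale that is linear under 1) and each line the median of the list, for 30 replication genes (left) and 24 mitosis genes (right) outside the rule. Median replication levels were 8.51 CPM in histone-high, 18.9 in histone-low, 129 in S-phase and 47.2 in G2/M cells, and median mitosis levels were 39.0, 10.0, 42.5 and 264 CPM in the same order of classes.

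The promoters of 3 of these genes are printed because the genes moved together. They are RefSeq promoters on GRCm38.p6, from 250 bases before to 50 bases after the gene's start, and each reads 5′ to 3′ on the gene's strand. Capitals mark the CHR element TTTGAA, a site bound by cell-cycle repressor complexes, and the CCAAT box, each on either strand. Ccnb2 lies at chr9:70421505-70421804 (minus strand), Cenpa at chr5:30666636-30666935 (plus strand) and Cdca3 at chr6:124829926-124830225 (plus strand).
Ccnb2: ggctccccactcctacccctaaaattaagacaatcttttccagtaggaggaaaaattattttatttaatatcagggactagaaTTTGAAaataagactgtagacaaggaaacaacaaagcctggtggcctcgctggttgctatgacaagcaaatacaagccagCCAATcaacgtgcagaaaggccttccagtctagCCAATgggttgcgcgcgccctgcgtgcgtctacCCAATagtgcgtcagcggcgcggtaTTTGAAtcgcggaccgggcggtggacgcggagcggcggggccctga
Cenpa: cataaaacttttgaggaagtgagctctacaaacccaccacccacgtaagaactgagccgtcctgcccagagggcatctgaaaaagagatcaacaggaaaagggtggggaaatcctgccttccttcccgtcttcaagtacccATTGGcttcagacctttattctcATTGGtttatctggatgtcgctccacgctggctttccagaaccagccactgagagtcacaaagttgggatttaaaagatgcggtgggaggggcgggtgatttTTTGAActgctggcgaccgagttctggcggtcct
Cdca3: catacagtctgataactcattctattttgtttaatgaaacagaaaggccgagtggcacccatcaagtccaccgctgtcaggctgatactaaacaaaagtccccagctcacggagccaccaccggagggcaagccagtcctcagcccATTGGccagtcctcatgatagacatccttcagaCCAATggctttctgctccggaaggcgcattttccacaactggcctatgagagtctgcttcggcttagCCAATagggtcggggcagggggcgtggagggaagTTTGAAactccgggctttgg
The promoter of the rule gene Hist1h1c, searched alike but not printed, held 0 matches of TTTGAA and 1 of CCAAT. Among the 12 mitosis genes that were higher, 83.3% of promoters held TTTGAA and 91.7% held CCAAT. Of the 65 higher genes, 57 had a promoter in the table, of which 42.1% held TTTGAA and 64.9% held CCAAT. Of the 53 lower genes, 40 had one, and 17.5% of these held TTTGAA and 42.5% held CCAAT. Over all 27025 promoters, TTTGAA was found in 18.1% and CCAAT in 37.9%, and matches of the motifs can overlap by 1 base. These promoters include those of genes under 20 CPM here, while every called gene reached that level. The share over measured genes alone was not taken. Promoters with both motifs were 33.3% of those of higher genes, 5% of those of lower genes and 7.12% of all. The mitosis genes are part of the higher genes, so their shares are not separate observations. A match is a description of the sequence and not a site shown to be bound.

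Mitotic transcripts were spread over many members. After each cell was thinned to 3000 UMIs, Ccnb2 had a UMI in 22.7% of histone-high cells of library 1 (95% exact binomial interval 18.9% to 26.8%) and 23.7% in library 2 (20.2% to 27.6%), against 2.56% and 3.88% of histone-low cells. Unthinned shares were 32.3% and 32.7% in histone-high cells, against 4.94% and 5.80% in histone-low cells. Free RNA can give a UMI in any droplet. Late cells were histone-low cells with at least 400 of Krt4 and Krt13 per 10000 that met the other limits. Their median depths were 15824 and 12723.5 UMIs, and their thinned shares for Ccnb2 were 1.16% and 1.77%. The limit on mitosis genes had left out late cells rich in those genes, so these shares do not measure free RNA alone. Cenpa had a UMI in 34.3% and 33.5% of thinned histone-high cells, against 5.0% and 6.14% of histone-low cells and 4.83% and 4.93% of late cells. The Cenpa shares of histone-low cells were thus close to those of the late cells, while those of histone-high cells were far above.

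The members could be divided by the mitosis genes of the rule. No UMI of these 6 genes was seen in 165 members of library 1 (36.0%) and 231 of library 2 (43.2%), against 64.9% and 67.1% of histone-low cells. In members without such a UMI, Ccnb2 was at 20.7 and 34.5 CPM, against 4.73 and 8.72 CPM in histone-low cells without one. In members with one, it was at 159 and 189 CPM, against 27.6 and 32.1 CPM in histone-low cells with one. Hist3h2a was at 123 and 123 CPM in members without such a UMI and at 155 and 158 CPM in members with one, against 65.5 to 66.9 CPM in library 1 and 64.3 to 66.0 CPM in library 2 in histone-low cells. Igfbp3 was at 253 and 298 CPM in members without and at 256 and 238 CPM in members with a mitosis UMI. With both classes limited to cells without a mitosis UMI, 28 genes were higher and 28 lower, of which 15 and 17 were called in the full comparison too. Hist3h2a (log2 0.91 and 0.90), Igfbp3 (1.25 and 1.15) and Hsp90b1 (0.67 and 0.62) kept their calls. The mitosis genes Cenpa (2.01 and 2.17), Cdca3 (2.79 and 2.35), Cdca8 (2.32 and 1.89), Birc5 (1.05 and 1.09) and Cdc20 (0.66 and 1.17) also kept theirs. Ccnb2 (2.13 and 1.99) stayed higher, but with a smaller ratio than in the full comparison (3.05 and 2.88), and it fell under 20 CPM. Cenpe, Mki67, Hmmr and Racgap1 fell under 20 CPM too, while Ckap2l and Hmgb2 were within the limit. Wfdc2 (0.39 and 0.81) and Igfbp6 (0.16 and 0.40) were no longer called. This limit was added after the data were seen.

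Histone variants that are made outside S phase formed the next group. The 10 measured had medians of 0.23 and 0.41 on the log2 scale. Of these 10, 4 were higher and 0 lower, against 1.23% higher and 1.01% lower over all genes. Beside Cenpa these were H2afv and H2afz, which encode H2A.Z proteins, and H1f0, the linker histone H1.0. H2afz stood at 1347 and 1390 CPM in histone-high cells of library 1 and library 2, against 657 and 733 CPM in histone-low cells (log2 1.04 and 0.92). H1f0 was at 414 and 460 CPM against 219 and 247 CPM (0.92 and 0.90), and H2afv at 331 and 342 CPM against 143 and 162 CPM (1.21 and 1.07). H3f3a, which encodes H3.3, was at 1350 and 1239 CPM in histone-high cells and 1310 and 1243 CPM in histone-low cells and was not called. The summed level of the variant list was 7541 CPM in histone-high and 5577 CPM in histone-low cells. It was 7349 CPM in S-phase and 13270 CPM in G2/M basal cells, so a high level was not particular to histone-high cells. The chromatin list summed to 4761 CPM in histone-high, 2995 in histone-low, 5504 in S-phase and 9351 in G2/M cells. It had 3 of 15 measured genes higher and 0 lower, all 3 of them high-mobility-group genes. Hmgn2 was at 382 and 374 CPM in histone-high cells against 148 and 173 CPM in histone-low cells, Hmgb1 at 2059 and 2181 CPM against 970 and 1109 CPM, and Hmgb2 at 562 and 631 CPM against 352 and 373 CPM. Most of these calls were lost among cells with no mitosis UMI. There the log2 ratios were 0.50 and 0.47 for H2afz, 0.65 and 0.52 for H2afv, 0.67 and 0.57 for Hmgn2 and 0.63 and 0.57 for Hmgb1, none of them past the limit in both libraries, while H1f0 stayed past it at 0.64 and 0.61. Hmgb2, which is also on the mitosis list, had a mean log2 ratio of -0.060 there. None of 8 measured genes for histone mRNA processing and histone chaperones passed the limit in either direction.

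The markers given for these cells were looked at next, in the order of their ratio. Hsp90b1, the endoplasmic reticulum chaperone GRP94, was at 516 and 542 CPM in histone-high cells of library 1 and library 2, against 240 and 253 CPM in histone-low cells (log2 1.10 and 1.10, interval 1.03 to 1.17). Igfbp3, a carrier that binds insulin-like growth factors, was at 255 and 263 CPM against 122 and 141 CPM (1.07 and 0.90, interval 0.89 to 1.08). Wfdc2, which encodes a secreted whey-acidic-protein domain protein, was at 139 and 152 CPM against 74.3 and 73.8 CPM (0.91 and 1.04, interval 0.85 to 1.10). Igfbp6, another IGF carrier, was at 52.9 and 44.5 CPM against 28.7 and 27.3 CPM (0.88 and 0.70, interval 0.58 to 1.01). Serpinh1, the collagen chaperone HSP47, was at 213 and 207 CPM against 144 and 159 CPM and stayed within the limit (0.56 and 0.39). So 4 of the 5 markers outside the rule were called. In each of the 5, both libraries of histone-high cells lay above both of histone-low cells. These markers were given with the cells, from earlier results of these same data, so the tally is a description and no separate support.

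**Figure D3:**
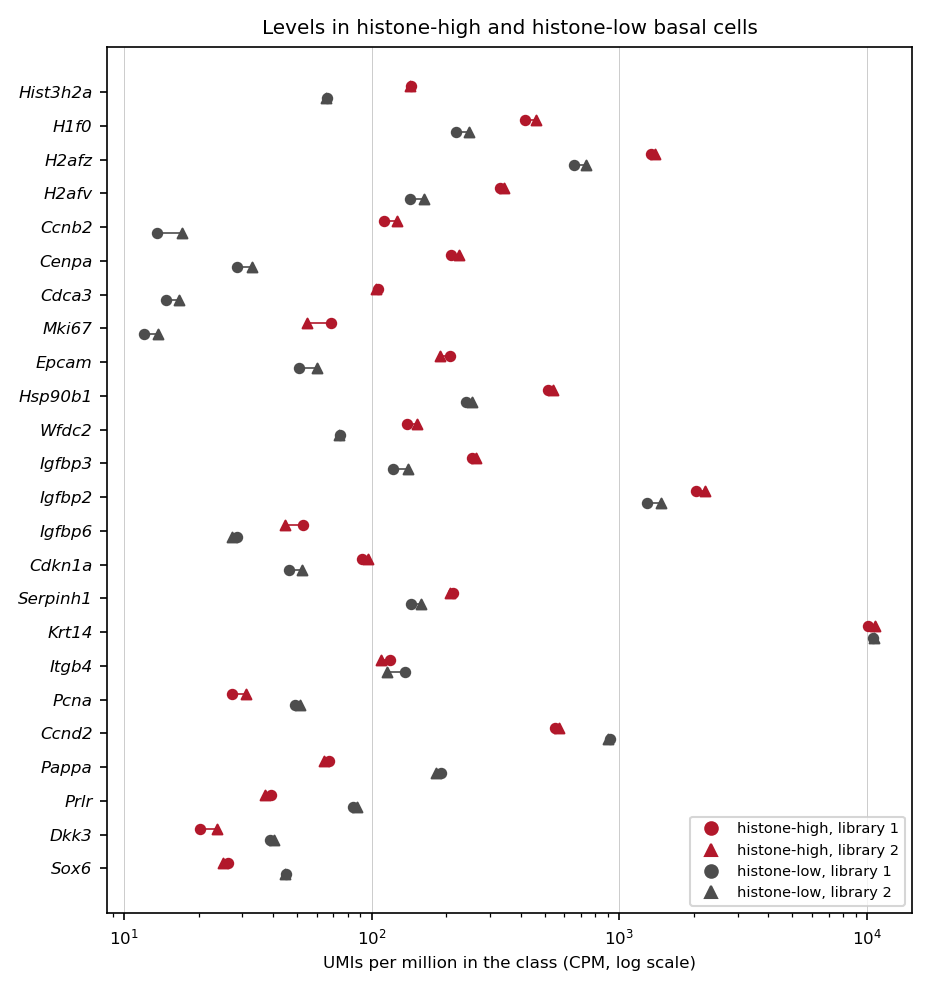
Levels of 24 genes in CPM on a log scale, with circles for library 1 and triangles for library 2, histone-high cells in red above histone-low cells in grey. Histone, mitosis and marker genes down to Cdkn1a lie higher in histone-high cells, Krt14 and Itgb4 overlap between the classes, and Pcna, Ccnd2, Pappa, Prlr, Dkk3 and Sox6 lie lower.

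Of 15 measured chaperones and folding enzymes of the endoplasmic reticulum, Hsp90b1 was the 1 past the limit and 0 were lower. The median of the list was 0.26 in library 1 and 0.18 in library 2, above the 0.071 and 0.056 over all genes. Of the 18 listed genes, 11 were higher in histone-high cells in each library, 2 were lower in each and 5 differed in sign, with no filter on level. Against S-phase basal cells, 8 were higher in each library, 4 were lower in each and 6 differed in sign. The list summed to 2937 CPM in histone-high, 2325 in histone-low, 2679 in S-phase and 2709 in G2/M cells. The median gene was at 126 CPM in histone-high and 160 CPM in S-phase cells. Fkbp2, a prolyl isomerase, was at 229 and 272 CPM in histone-high cells against 171 and 203 CPM in histone-low cells. Of 4 measured unfolded-protein-response factors 0 passed in either direction, and Xbp1 was at 64.3 and 70.0 CPM against 62.4 and 63.6 CPM. Of 23 genes for translocation and secretory transport 0 passed, with medians of 0.18 and 0.19, and 21 were higher in histone-high cells in each library by less than the call required. The list around collagen folding held 4 measured genes, of which 0 were higher and 1 was lower: Crtap, a part of the collagen prolyl 3-hydroxylase complex, at 20 and 17 CPM in histone-high cells against 30.0 and 27.1 CPM in histone-low cells, a call that was lost under 8 of the 17 alternative settings.

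Of 7 measured genes of the IGF axis, 3 were higher and 0 lower, and all 3 encode binding proteins. Igfbp2 was the most abundant, at 2036 and 2213 CPM in histone-high cells against 1297 and 1469 CPM in histone-low cells (log2 0.65 and 0.59). Its call was close to the limit and was lost under 8 of the 17 settings, median-of-ratios scaling among them. The median of the list was 0.32 in library 1 and -0.10 in library 2, so the libraries differed in sign. The receptor gene Igf1r was at 61.0 and 64.1 CPM against 75.5 and 70.8 CPM. Pappa, which encodes a protease that cleaves IGF-binding proteins and was on no list, was lower, at 67.3 and 64.5 CPM in histone-high cells against 191 and 183 CPM in histone-low cells (log2 -1.51 and -1.50, interval -1.67 to -1.35).

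Cell-cycle regulators moved unevenly. Of 14 measured cyclins, CDK inhibitors and pocket proteins, 1 was higher and 1 lower. Cdkn1a, the CDK inhibitor p21, was at 91.0 and 96.3 CPM in histone-high cells of library 1 and library 2, against 46.5 and 52.4 CPM in histone-low cells (log2 0.97 and 0.88). Among cells with no mitosis UMI its log2 ratio was 1.33 in library 1 and 0.53 in library 2, so it was not called there. After thinning, Cdkn1a had a UMI in 20.3% and 19.4% of histone-high cells, against 9.94% and 11.1% of histone-low cells. In the late cells its share was 63.0% and 65.6%, so a high share was not particular to histone-high cells. Median Krt4 and Krt13 were higher in histone-high than in histone-low cells, and their part in the Cdkn1a ratio was not tested. Ccnd2, which encodes the G1 cyclin D2, was at 552 and 569 CPM against 913 and 901 CPM (-0.73 and -0.66). This call was lost under 4 of the 17 settings, and the ratios were -0.43 and -0.47 among cells with no mitosis UMI. Ccnd1 was at 99.5 and 86.0 CPM against 138 and 132 CPM, and Cdk6 at 40.7 and 50.8 CPM against 72.1 and 70.6 CPM, and neither passed in both libraries. Cdkn1a was the 1 of 8 measured p53 targets that was higher, with 0 lower.

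Basal identity did not separate the classes at this limit. Of 9 genes of basal keratins and basal transcription factors, 0 were higher and 0 lower, with medians of 0.19 and 0.22. Krt14 was at 10068 and 10810 CPM in histone-high cells and 10525 and 10644 CPM in histone-low cells, and Krt5 at 3679 and 3465 CPM against 3614 and 3389 CPM. Krt15 was at 2931 and 3136 CPM against 2134 and 2490 CPM and was not called. Of 9 measured genes of hemidesmosomes and the basement membrane, 0 passed in either direction. Itgb4, the gene of the sorted protein, was at 118 and 109 CPM in histone-high cells and 136 and 116 CPM in histone-low cells. Of 7 measured oral stem cell candidates, Igfbp2 was higher and Sox6, a transcription factor gene, was lower at 26.3 and 25.2 CPM against 45.3 and 44.8 CPM, a call lost under 5 of the 17 settings (-0.45 and -0.54 among cells with no mitosis UMI).

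Signalling and stress lists held few calls. In the Wnt list 0 of 11 were higher and 1 was lower, Dkk3, a secreted protein of the Dickkopf family, at 20.3 and 23.7 CPM in histone-high cells against 38.9 and 40.3 CPM in histone-low cells. Wnt4, a ligand gene, was at 254 and 250 CPM against 183 and 162 CPM and was not called. None passed in either direction among 9 TGF-beta and BMP genes, 6 Notch genes, 11 immediate early genes, 10 cytosolic heat shock genes, 15 genes of glycolysis and hypoxia, 4 interferon-response genes and 5 genes of cholesterol synthesis. Of 5 measured secreted defence genes and protease inhibitors, Wfdc2 was higher and the defensin gene Defb1 was lower, at 118 and 126 CPM against 193 and 199 CPM. The Defb1 call was lost under 4 of the 17 settings.

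Immune transcripts and those of some differentiation genes led the genes that were called lower. Of 9 listed markers of Langerhans and myeloid cells, the 4 that reached 20 CPM were called lower, and the summed level of the 9 genes was 8.50 CPM in library 1 and 663 CPM in library 2 in histone-high cells, against 896 and 1932 CPM in histone-low cells. Cd74, the invariant chain of MHC class II, was at 2.96 and 345 CPM in histone-high cells and 429 and 972 CPM in histone-low cells. The T and NK list summed to 1.85 and 11.1 CPM against 62.7 and 64.5 CPM, with 1 of 1 measured gene, Cd52, lower, and Cd3d and Cd3e at 0 in histone-high cells. Cells with at least 5 UMIs per 10000 of 6 immune genes (Cd74, H2-Aa, H2-Ab1, H2-Eb1, Cd52, Nkg7) numbered 1 of 458 and 4 of 535 among histone-high cells, against 19 of 1599 and 33 of 1725 among histone-low cells. The differentiation keratins Krt4 and Krt13, limited by the rule, went the other way. The median histone-high cell had 44.4 and 43.9 of them per 10000, against 37.1 and 38.6 in histone-low cells. Of 7 measured differentiation markers outside the rule, 0 were higher and 3 lower. These were the suprabasal and stress keratins Krt1 (17 and 13 CPM against 112 and 133 CPM), Krt10 (72.1 and 90.8 CPM against 205 and 295 CPM) and Krt16 (23.7 and 34.8 CPM against 166 and 171 CPM). Cells with at least 20 UMIs per 10000 of Krt1, Krt10, Krt6b and Krt16 numbered 4 and 2 in histone-high cells, against 16 and 18 in histone-low cells. With both kinds of cells left out, a choice made after the data were seen, 77 genes were higher and 43 lower, and the log2 ratios of Krt1 (0.15), Krt10 (0.28), Krt6b (0.17) and H2-Aa (0.047) were above 0. Krt16 (-0.46 and 0.024) differed in sign between the libraries, and Cd74 (-1.13 and -0.85) and Cd52 (-0.57 and -0.87) stayed below 0 but were far under 20 CPM. The low calls for Krt1, Krt10, Krt6b, Krt16, Cd52 and the 4 myeloid markers were all lost. The cells left out were defined by these same genes, so that loss was largely set in advance and nothing is read from it. Chil4, which encodes a chitinase-like protein, was at 543 and 370 CPM in histone-high cells against 2482 and 1258 CPM in histone-low cells, and Sprr2a3, a cornified-envelope gene, at 12.2 and 9.63 CPM against 131 and 44.6 CPM. Without the immune and Krt1, Krt10, Krt6b or Krt16 cells the ratio of Chil4 was -0.76 and -0.62, and Sprr2a3 was under 20 CPM. Without cells over 2 times the median UMIs of their library, Chil4 was not called.

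Other cell types were scarce in the members. Of the 15 glandular markers, the 2 measured ones, Epcam and Wfdc2, were both higher, and the list summed to 360 and 356 CPM in histone-high cells against 147 and 153 CPM in histone-low cells. Epcam, an epithelial adhesion molecule, was at 207 and 188 CPM against 50.8 and 60.0 CPM (log2 2.03 and 1.65). The glandular keratin Krt8 was at 0.37 and 1.48 CPM in histone-high cells, and Aqp5, Ltf and Prom1 were at 0. The rule itself limits Krt7 and Krt18. Of 12 fibroblast markers, 7 were at 0 in histone-high cells, Col1a1, Col1a2 and Col3a1 among them, and the summed level was 86.2 and 89.7 CPM against 101 and 112 CPM. Endothelial markers summed to 3.70 and 3.70 CPM against 2.42 and 2.40 CPM, pericyte and muscle markers to 33.3 and 28.2 CPM against 23.2 and 20.9 CPM, and melanocyte and Schwann cell markers to 30.7 and 26.3 CPM against 28.4 and 25.9 CPM. On the Merkel and taste list, 6 of 8 genes were at 0, and Sox2, which the basal list holds too, made up nearly all of the sum.

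Levels also changed along the histone sum within each class. Cells with none of the 3 histone genes had 7.44 and 10.0 CPM of Ccnb2 in library 1 and library 2. Cells at 2.5 to 5 per 10000 had 21.4 and 30.5 CPM, cells at 5 to 7.5 had 73.3 and 71.8 CPM, and cells at 10 and above had 146 and 170 CPM. Hist3h2a was at 56.3 and 59.6 CPM in cells with none and at 184 and 169 CPM in cells at 10 and above. Pappa went the other way, with 230 and 199 CPM in cells with none and 29.0 and 37.3 CPM at 10 and above. Just inside the limit, in 182 cells at 5 to 6 per 10000, Ccnb2 was at 64.7 CPM in library 1 and 29.4 CPM in library 2, and just outside, in 249 cells at 4 to 5, it was at 20.4 and 49.0 CPM. The libraries thus ran in opposite directions at the limit, as they did for Cenpa, Cdca3 and Mki67. Hsp90b1 was at 401 and 353 CPM just inside and 297 and 276 CPM just outside. Igfbp3 averaged 180 CPM just inside and 228 CPM just outside and was lower inside in each library, and Cdkn1a was at 64.7 and 63.3 CPM just inside and 84.5 and 83.8 CPM just outside, so for these genes the order at the limit was opposite to that of the classes in each library. Igfbp6 averaged 32.1 CPM just inside and 35.0 CPM just outside, with the libraries in opposite directions.

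**Figure D4:**
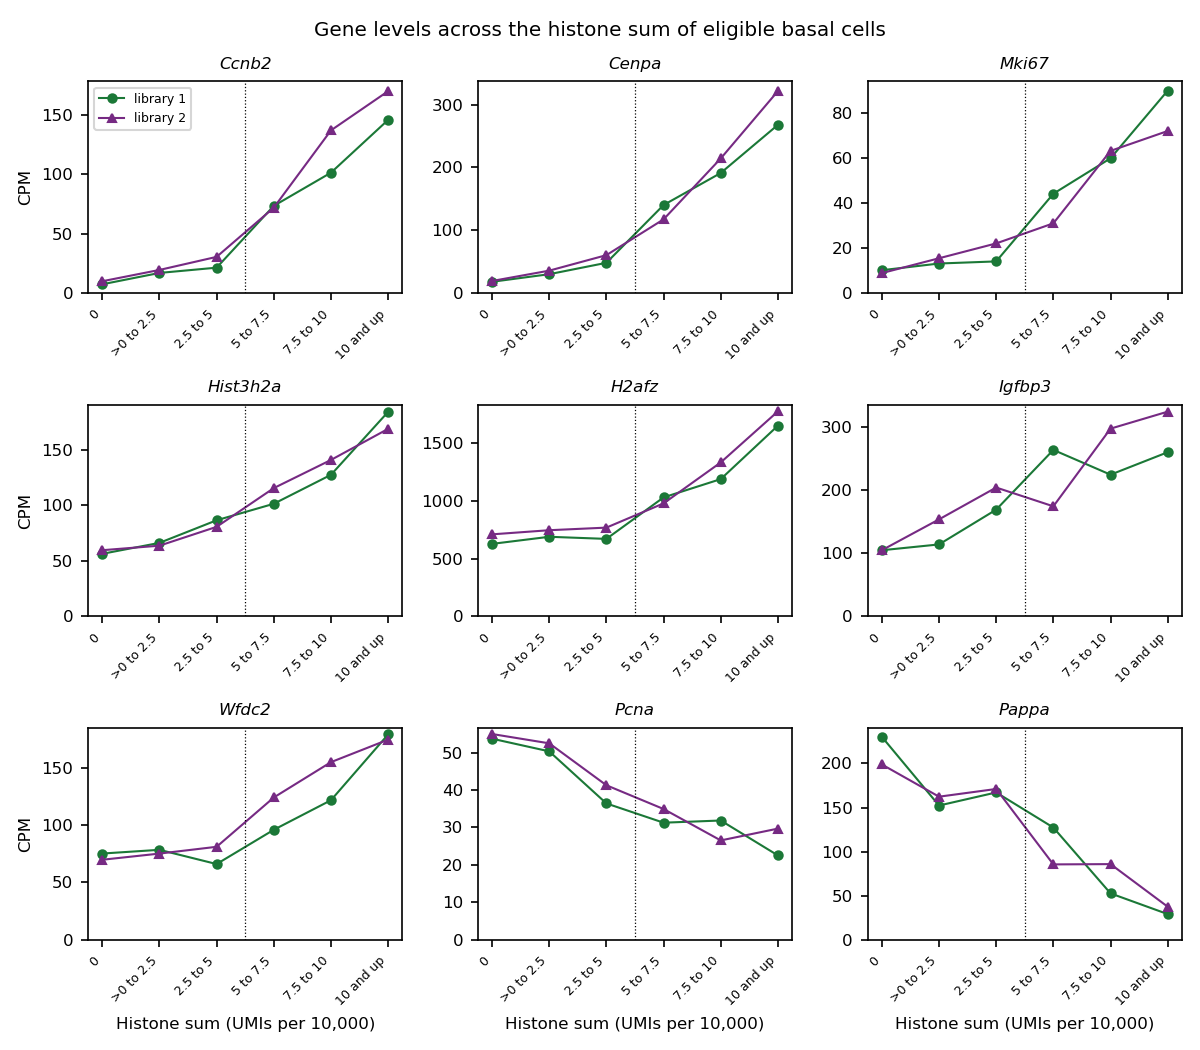
Levels in CPM of 9 genes over 6 bins of the histone sum in eligible basal cells (circles library 1, triangles library 2), with the dotted line at the limit of 5 per 10000. Mitosis and histone genes climb over the bins, from 7.44 and 10.0 CPM to 146 and 170 CPM for Ccnb2, while Pcna and Pappa decline.

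The same contrast was made in cells that the basal rule had left out because they held at least 80 of Krt4 and Krt13 per 10000. These were 1086 histone-high cells (465 and 621) and 5474 histone-low cells (2378 and 3096). Of 4713 genes, 34 were higher (0.721%) and 8 were lower (0.17%). Of the 65 genes higher in basal cells, 23 were higher here too, which is 35.4% of the basal calls and 67.6% of the calls here. Genes called in opposite directions in the comparisons numbered 0, which does not cover genes within the limit or not measured here. Of the 65, 52 reached the level filter in these cells. Shared genes included Ccnb2 (log2 2.84 and 1.96), Cenpa (2.51 and 1.83), Mki67 (1.88 and 1.35), Epcam (1.67 and 1.33), H2afz (1.07 and 0.84) and Hmgn2 (1.52 and 1.19). Igfbp3 had a larger ratio than in basal cells, 2.39 and 1.64, and Serpinh1, within the limit in basal cells, was higher here (0.85 and 0.80). Hsp90b1 (0.56 and 0.22), Hist3h2a (0.46 and 0.47) and Cdkn1a (0.13 and 0.14) were within the limit. The lower genes shared by both comparisons were Chil4, Gsdmc, Krt16 and Prlr, 7.55% of the basal calls and 50% of the calls here. Only 22 of the 53 lower basal genes reached the level filter in these cells, so the others could not be called there. Krt4 and Krt13 themselves differed, since the median histone-high cell here had 219 and 279 of them per 10000, against 377 and 412 in histone-low cells, and their part in these ratios was not tested.

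**Figure D5:**
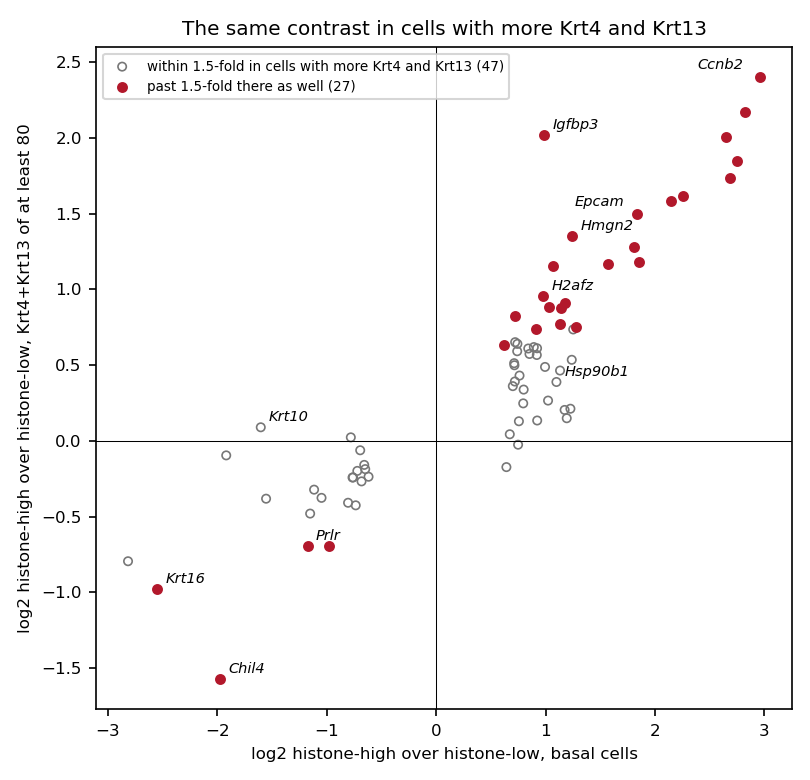
Log2 ratio (mean of the libraries) of histone-high over histone-low cells in basal cells (horizontal) and in cells with at least 80 of Krt4 and Krt13 per 10000 (vertical), for 74 genes called in basal cells and measured in both comparisons. Filled points mark 27 genes past 1.5-fold in both comparisons, 23 higher and 4 lower, and open points mark the remaining 47.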

How the data were processed

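The deposited values are counts of UMIs per gene and barcode, not normalized, made with Cell Ranger on the mouse build mm10, per the submitters' processing notes. The Cell Ranger version, annotation and barcode filter are not given in the sources used here. The lowest barcode held 3362 UMIs in library 1 and 3149 in library 2. Of 27998 genes, 27645 (98.7%) matched GENCODE M21 (GRCm38, the assembly of mm10) by Ensembl identifier. Barcodes below 500 genes or above 10% mitochondrial UMIs were dropped. No doublet caller was run, and cells over 2 times their library's median UMIs were left out as an alternative. Counts were summed by class and library and scaled to CPM, and a count of 0 was set to 3 in ratios. With 1 independent sample no test was made. Ratios carry exact conditional binomial 95% intervals on the counts of both libraries. Named genes are the 12 highest and 12 lowest called genes by the smaller library ratio, the 6 given markers, the rule genes, Hist genes of at least 20 CPM and up to 4 genes of each list. Genes named outside it, such as Hist1h3d, Hist1h2ae, Prlr, Spc25, Cdk1 and Gsdmc, and some further list members, were picked after their values were seen. The members and the gene lists were chosen with earlier results of these data known. Sequences came from GENCODE transcripts and RefSeq promoters. The size rule was tested on simulated data. Scripts ran in Python 3.11.15 with pandas 2.3.3, numpy 2.4.6, matplotlib 3.10.9 and scipy 1.17.1.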

Additional observations from a re-analysis of the deposited data

How the results depend on the processing

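No paired analysis was possible because the study has 1 independent sample, split for sequencing, and no test was made. In basal cells 65 genes were higher and 53 lower, and with the keratin limit reversed 34 and 8. With a histone sum of at least 3 there were 25 lower basal genes and 9 higher and 1 lower in cells with more Krt4 and Krt13, and the shares of histone-high cells were 33.4% and 34.5%. With a sum of at least 8 the basal counts were 98 and 91, the others 186 and 97, and the shares 13.7% and 13.9%. With Hist1h1c alone at least 3, counts in cells with more Krt4 and Krt13 were 265 and 125 and the shares 12.3% and 12.8%. With Krt4 and Krt13 under 20 only 48 histone-high cells were left, with 304 higher and 206 lower genes and shares of 18.2% and 12.3%, and Igfbp6 (-0.72) and Sprr2a3 (0.35) changed sign. Cells of at most 5% mitochondrial UMIs gave shares of 26.1% and 28.1%. Thinning before the classes were set left 12 higher and 0 lower genes in cells with more Krt4 and Krt13. At 50 CPM the basal counts were 42 and 19 with 15 higher in the others, and with no filter on low genes 338 and 594, and 385 and 168. Alternatives chosen after seeing the data were cells with no mitosis UMI (28 and 28, 8 and 2, shares 13.7% and 16.6%, Hmgb2 at -0.060) and the removal of immune and Krt1, Krt10, Krt6b or Krt16 cells (Krt1 0.15, Krt10 0.28, Krt6b 0.17, H2-Aa 0.047). With a single library, so without library 1 or without library 2, basal counts ranged over 98 to 131 higher and 93 to 101 lower, and over 37 to 65 and 11 to 18 in the others, as the call then needs 1 library only. Of the 17 alternatives, Ccnb2 kept its call in 16, Cenpa, Cdca3, Hsp90b1, Hist3h2a and Pappa in all 17, H2afz, Hmgn2, Cdkn1a and Epcam in 16, Igfbp3 and Cd74 in 15, Wfdc2, Krt1 and Chil4 in 14, Ccnd2 and Defb1 in 13, Igfbp6, Pcna, Sox6 and Krt16 in 12, Krt10 in 10, Igfbp2 and Crtap in 9. Where a result moved, the cause was not tested. Genes under 20 CPM, among them most histone genes, are beyond the precision of 993 cells.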
